A study of Mus musculus with 10 samples.

Results

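Molecular chaperones and their direct helpers were compared between the aortas of wild type mice and of mice lacking Ptgds, which encodes the prostaglandin D2-forming enzyme L-PGDS (lipocalin-type prostaglandin D synthase). Members were chosen by symbol: the HSP70, HSP110, HSP90, small heat shock protein, HSP60 and HSP10, J-domain, BAG and TRiC chaperonin families, with Cryab and Tcp1, taken from probe sets with 1 gene symbol, each gene by its brightest probe set. This gave 87 genes on 208 probe sets, out of 18193 genes named on the array. Of these, 78 were measured over a log2 value of 4 on at least 4 arrays and were tested among 14321 genes. The other 9 members, which include the small heat shock protein genes Hspb3 and Hspb9, the testis-type genes Cct6b, Dnajb3, Dnajb7, Dnajb8 and Dnajb13, and Cct8l1 and Dnajc5g, stood at group means of 2.71 to 3.66 and were not tested. Hsf1 and Hsp90ab1 were not analysed here.

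All mice were male C57BL/6, fed chow and kept under a cycle of light and dark. The whole aorta was extracted for total RNA, so fewer cells of a type and less RNA per cell cannot be told apart. The labels give no age and say nothing of how the Ptgds allele was made. Values were given for 4 wild type samples (replicates 1, 3, 4 and 5) and 5 knockout samples, which the labels call biological replicates, and wild type replicate 2 was excluded by the submitters.

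Chaperones bind unfolded or unstable proteins and help them fold, assemble or be degraded. HSP70 proteins work in cycles driven by ATP, started by J-domain proteins and ended by exchange factors such as HSP110 and BAG proteins. HSP90 acts later on signalling proteins, small heat shock proteins hold unfolded clients, and the TRiC chaperonin folds actin and tubulin. Each compartment has its own set: Hspa8 and Hspa1a in the cytosol, Hspa5 and Hsp90b1 in the endoplasmic reticulum (ER), Hspa9 and the Hspd1 and Hspe1 pair in mitochondria. Heat, damaged protein and other stress raise part of the cytosolic set through the factor HSF1, while misfolded protein in the ER raises the ER set through other factors. In smooth muscle, the small heat shock proteins also bind actin and desmin.

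Ptgds stood at 9.11, 10.31, 8.79 and 8.68 on the wild type arrays and between 3.67 and 4.40 on the 5 knockout arrays, a 39.4-fold difference (adjusted p 0.00059 in limma), so every array matched its label. Median log2 values per array were 5.88 to 5.97, and the mean correlation of an array with the rest was 0.983 to 0.992, lowest for wild type replicate 3. Smooth muscle markers had the highest summed level on every array (15.91 to 16.08 in wild type and 16.07 to 16.12 in knockout, log2), with all 7 higher in the knockout mean, by a median of 0.077. The 7 endothelial markers were all lower in the knockout mean (12.42 to 13.09 and 12.30 to 12.86), with a median change of −0.29. At an unadjusted p of 0.05 in limma, 3 of 7 endothelial markers were lower and 3 of 7 smooth muscle markers higher. All 5 markers each of adipocytes, brown adipocytes, macrophages and neurons were lower too, with medians of −0.19, −0.18, −0.25 and −1.40. Of 5 fibroblast markers 4 were lower, of 5 cardiomyocyte markers 4, and all 4 tested skeletal muscle markers were higher. Fibroblast markers summed to 14.44 to 14.92 and 14.43 to 14.76, adipocyte markers to 14.42 to 14.69 and 14.14 to 14.64, brown adipocyte markers to 14.25 to 14.64 and 13.93 to 14.42, and macrophage markers to 12.35 to 13.19 and 12.63 to 12.85. Markers of 3 kinds were uneven within the groups: neuron markers reached 13.96 on wild type replicate 3 and 12.44 on knockout replicate 1 but 9.61 to 11.26 elsewhere, skeletal muscle markers 12.17 on knockout replicate 3 but 6.68 to 7.30 elsewhere, and cardiomyocyte markers 8.54 to 11.71 over all arrays. Of the skeletal muscle markers Myh1 and Myh4 were under the floor, and the 3 tested Schwann cell markers summed to 9.97 to 12.45 and 10.12 to 11.90. No marker passed an adjusted p of 0.05 in limma (0 of the tested ones), and the part of cell makeup in the changes below was not tested.

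In the knockout aorta, chaperone transcripts of the cytosolic heat shock group were lower on average, while the ER and chaperonin groups had medians of 0.011 and −0.038 by their brightest probe sets. Of 78 tested members 55 were lower in the knockout and 23 higher. That is 70.5% lower, against 43.3% of all tested genes, with a median change of −0.085 (log2) against 0.027. At an unadjusted p of 0.05, 18 members were lower, against 7.12% of all genes, and 5 were higher, against 12.8%. The arrays of the groups did not overlap for 12 lower members, where 2.16% of all genes did so, and for 1 higher member, where 4.59% did. No member passed an adjusted p of 0.05 in limma: 0 of 78, beside 8 of 14321 genes (0.0559%), and the lowest adjusted p was 0.083, for Hspb1.

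**Figure D1:**
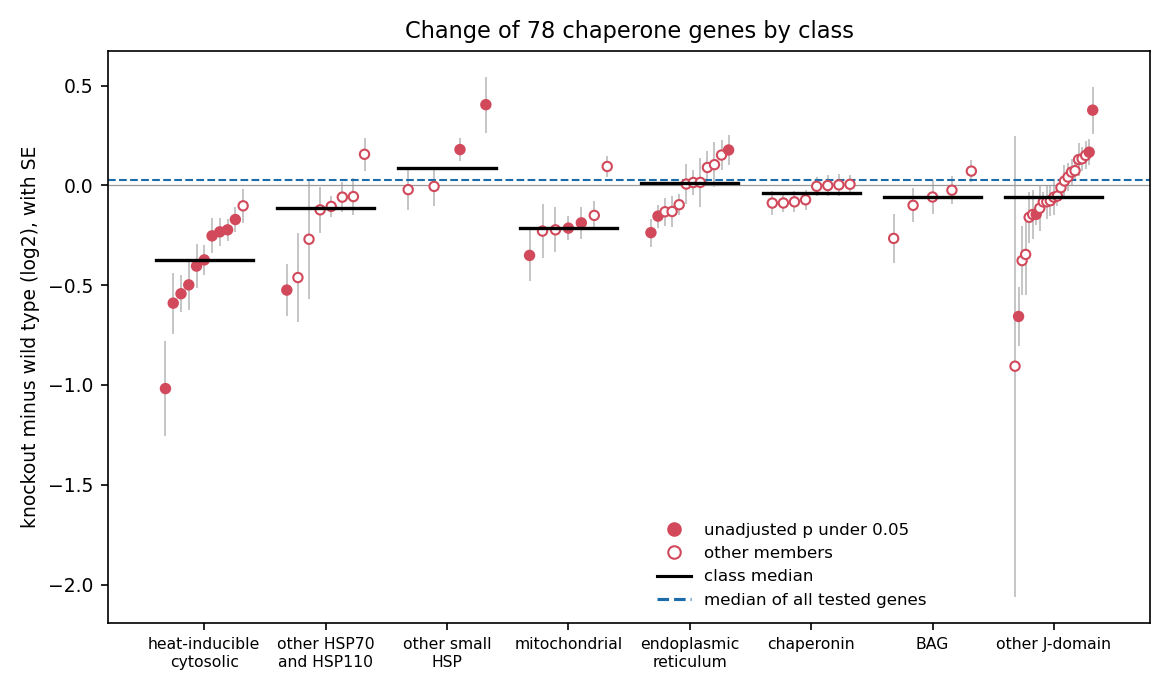
Change of each tested member between knockout and wild type (log2, y axis, with its standard error) in 8 classes (x axis); filled points have an unadjusted p under 0.05, black bars are class medians, and the dashed line is the median of all tested genes. All 11 heat-inducible cytosolic members lie under 0 with a median of −0.37, while the ER class has a median of 0.011; the wide bar at the right is Dnajc6.

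The heat-inducible cytosolic class holds Hspa1a and Hspa1b, the stress-induced HSP70 pair; Hsph1, an HSP110 exchange factor; Hsp90aa1, the inducible HSP90; the J-domain genes Dnajb1, Dnaja1 and Dnajb4; the small heat shock protein genes Hspb1, Cryab and Hspb8; and Bag3, which links HSP70 to Hspb8 in the clearance of damaged filaments. All 11 were lower in the knockout mean, by 0.10 to 1.02 (log2) with a median change of −0.37. At an unadjusted p of 0.05, 10 of 11 were lower (90.9%, against 7.12% of all genes). For 6 the arrays of the groups did not overlap, where 2.16% of all genes were lower without overlap. As a mean over the 11 genes, the wild type arrays stood at 12.09, 12.33, 12.47 and 12.54 (replicates 1, 3, 4 and 5) and the knockout arrays at 11.95, 11.99, 11.90, 12.02 and 11.93. Wild type replicate 1 thus lay nearest the knockout arrays.

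Hspa1a had the largest difference of the class. Its wild type values were 10.70, 11.55, 11.85 and 11.98, and its knockout values 10.33, 10.64, 10.32, 10.65 and 10.57. The lowest wild type array, replicate 1, stood just above the highest knockout array. The means were 11.52 ± 0.57 (SD, n = 4) and 10.50 ± 0.17 (SD, n = 5), a change of −1.02 (SE 0.24, 2.03-fold lower, adjusted p 0.118 in limma). Without wild type replicate 1 the change was −1.29, and over all alternative settings it ran from −1.29 to −0.87.

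Bag3 followed, with wild type values of 10.40, 11.00, 11.08 and 11.19 and knockout values of 10.36, 10.32, 10.26, 10.51 and 10.19. The groups overlapped through wild type replicate 1 and knockout replicate 4. The change was −0.59 (SE 0.15, 1.51-fold lower, adjusted p 0.134 in limma).

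Hspb1, which encodes the actin-binding small heat shock protein known in humans as HSP27, had the smallest p of all members. It stood at 13.38, 13.58, 13.72 and 13.71 in wild type aortas and at 12.94, 13.00, 12.98, 13.26 and 13.10 in knockout aortas. No knockout array reached the lowest wild type array. The change was −0.54 (SE 0.093, 1.46-fold lower, adjusted p 0.083 in limma).

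The J-domain members that start the HSP70 cycle were lower as well. Dnajb1, the main partner of inducible HSP70, stood at 12.08, 12.34, 12.52 and 12.68 against 11.94, 12.11, 11.82, 11.71 and 11.96, a change of −0.50 (SE 0.13, adjusted p 0.131). Here only knockout replicate 2 lay above the lowest wild type array. Dnaja1, a farnesylated J-domain protein, stood at 11.90, 11.95, 12.07 and 12.18 against 11.70, 11.66, 11.51, 11.75 and 11.62. Its groups did not overlap, and the change was −0.37 (SE 0.075, adjusted p 0.105 in limma). Dnajb4, an abundant muscle J-domain gene, differed least by the brightest probe set, at −0.10 (SE 0.086, adjusted p 0.532). Its wild type range of 12.78 to 13.17 enclosed all knockout arrays.

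Hspa1b stood at 12.90, 13.27, 13.41 and 13.43 in wild type and at 12.76, 12.93, 12.79, 12.97 and 12.79 in knockout aortas, a change of −0.40 (SE 0.11, adjusted p 0.137). Knockout replicates 2 and 4 lay above wild type replicate 1. Hspa1a and Hspa1b are near-identical copies, so how far their probe sets tell them apart is uncertain. Hsph1 differed by −0.23 (SE 0.072, adjusted p 0.152) without overlap of the groups (12.87 to 13.13 against 12.69 to 12.84). Hsp90aa1 differed by −0.25 (SE 0.088, adjusted p 0.177): wild type arrays ran from 11.99 to 12.45 and knockout arrays from 11.93 to 12.06. Cryab, alpha-B crystallin, which guards desmin filaments in muscle, differed by −0.22 (SE 0.056, adjusted p 0.131), with 12.57 to 12.75 against 12.39 to 12.50. Hspb8, the partner of Bag3, differed by −0.17 (SE 0.063, adjusted p 0.195), with 11.29 to 11.34 against 10.97 to 11.24. For both Cryab and Hspb8 every knockout array lay under every wild type array.

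**Figure D2:**
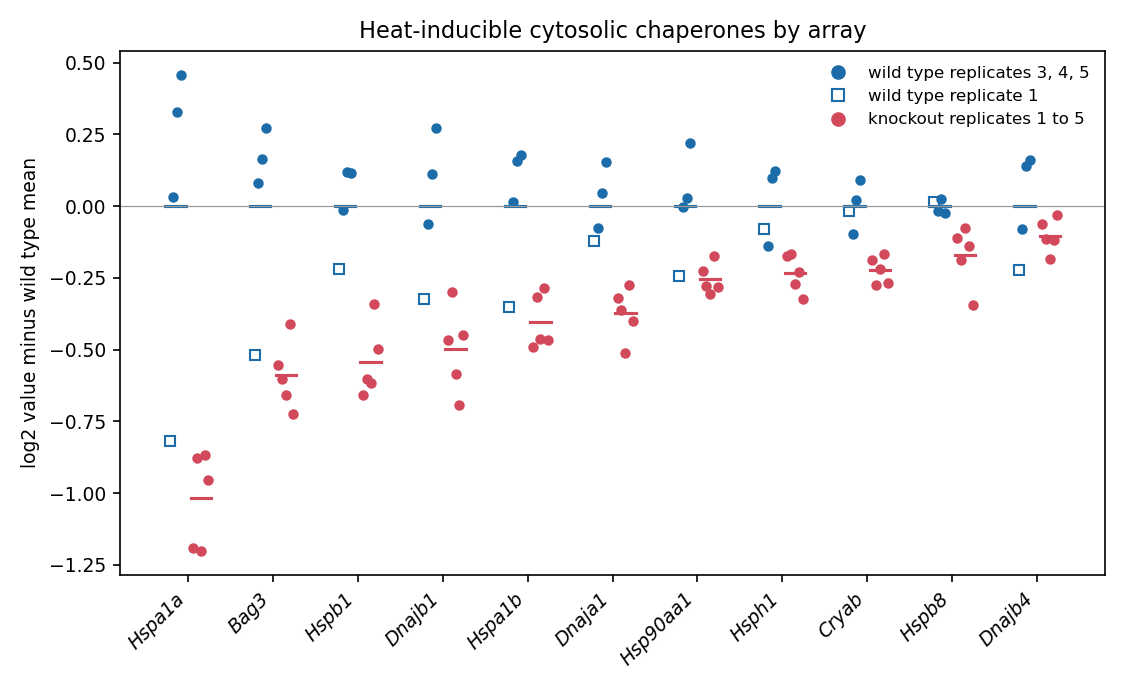
Log2 value of each heat-inducible cytosolic member on each array minus its wild type mean (y axis), by gene (x axis); open squares are wild type replicate 1, other blue points wild type replicates 3, 4 and 5, red points the 5 knockout arrays, and bars the group means. Wild type replicate 1 is the lowest wild type array for 8 of the 11 genes.

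The order of the arrays was shared by most of these genes. Wild type replicate 1 was the lowest wild type array for 8 of 11, and wild type replicate 5 the highest for 9 of 11; among knockout arrays replicate 4 was the highest for 7 of 11. The spread was larger among wild type arrays for 10 of 11 genes, with a median SD of 0.18 against 0.096. Over all tested genes the wild type SD was larger for 9285 of 14321, with medians of 0.16 and 0.13. Wild type replicate 1 weighed on the calls: without it 11 members passed an adjusted p of 0.05 in limma, namely Bag3, Dnaja1, Dnajb1, Hsp90aa1, Hspa1a, Hspa1b and Hspb1 of this class, with Dnaja4 and Hspa1l lower and Dnajc17 and Hspb2 higher. In that fit 1051 of 14321 genes passed (7.34%). When any 1 of the other arrays was left out, 0 members passed.

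Further probe sets of the class gave the same sign almost throughout. Of 16 other tested probe sets, for 9 of the genes, 15 were lower and 13 were lower at an unadjusted p of 0.05, with a median of −0.38. Among the other probe sets of all tested genes, 6347 of 12183 were lower, and 1228 at that p. For several genes the dimmer probe sets differed more than the brightest, which alone represents the gene elsewhere in the text. Hspa1b differed by −0.40 on 1452318_a_at (wild type mean 13.25) but by −1.37 on 1427126_at (11.47) and −1.19 on 1427127_x_at (11.48). Dnajb1 differed by −0.50 on its brightest probe set and by −1.08 on 1416756_at (wild type mean 8.98), where wild type arrays at 8.15 to 9.55 lay above all knockout arrays at 7.81 to 8.01. Hsp90aa1 differed by −0.25 on the brightest and by −0.31, −0.37 and −0.63 on 3 others that were tested. The cause was not tested. The 1 exception in sign was a probe set of Dnajb4 with a wild type mean of 6.66, at 0.22. Another probe set of Dnajb4, with a wild type mean of 10.77, stood at −0.38 (unadjusted p 0.062 in limma).

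**Figure D3:**
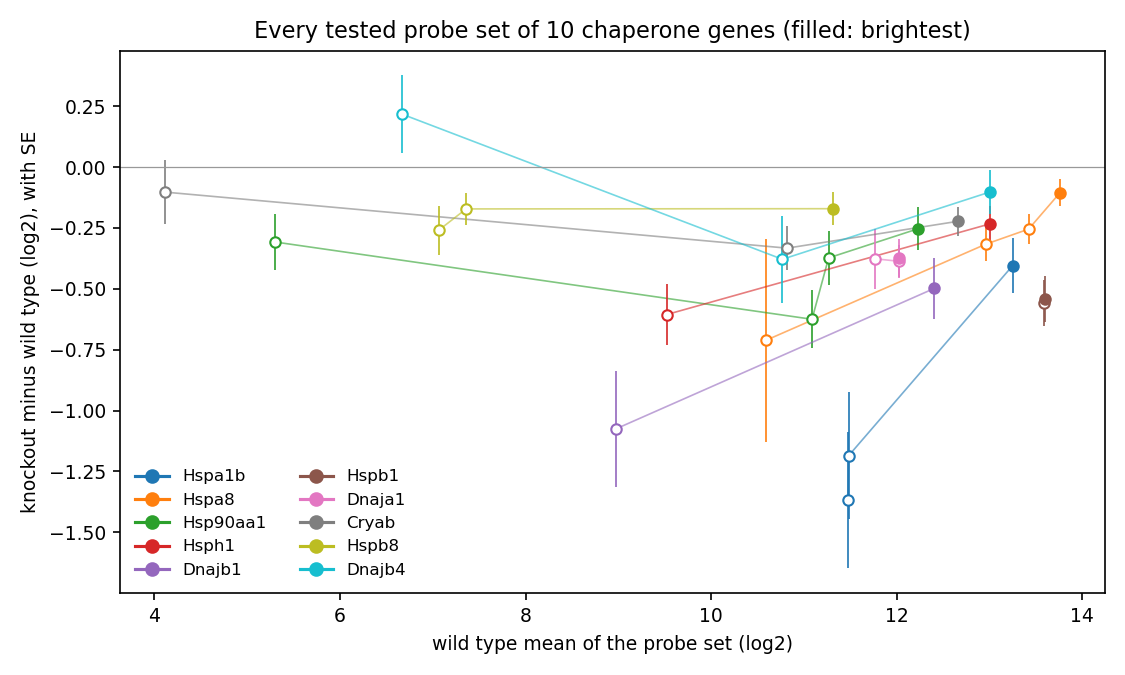
Change between knockout and wild type (log2, y axis, with its standard error) against the wild type mean of the probe set (log2, x axis) for every tested probe set of 10 chaperone genes, joined by gene; filled points are the probe sets that represent the gene. For Hspa1b the brightest probe set stands at −0.40 and the others at −1.37 and −1.19.

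The starts of these genes were read from RefSeq (GRCm38.p6), in windows of 250 bases before to 50 bases after each start, because the class is known for heat shock elements, the sites of HSF1. A heat shock element is built from alternating GAA and TTC units set 2 bases apart. A pair of units head to head, GAANNTTC (its own reverse complement, so both strands are read at once), was found in 7 of 9 inducible members with a window (77.8%): Bag3, Dnaja1, Hspa1a, Hspa1b, Hspb1, Hspb8 and Hsph1. It was found in 9.04% of all 27025 genes and 7.86% of all 32851 windows, in 0 of 7 constitutive cytosolic, 0 of 10 ER and 0 of 4 BAG members, and in 1 of 8 chaperonin (12.5%), 4 of 23 other J-domain (17.4%), 2 of 5 other small heat shock protein (40%) and 2 of 4 mitochondrial members (50%). Hspb6, which was higher in the knockout aortas, is among them. The pair tail to tail, TTCNNGAA, was found in 2 of the 9 inducible members (22.2%) and in 9.6% of all genes. Over all classes 71 of 87 members had a window. The head-to-head pair began after the start in Bag3 (at 42), Hspb8 (at 2) and Hsph1 (at 20 or 41 by window). Dnajb1 and Dnajb4 had windows but no such pair. As the class was drawn up by known heat inducibility, its share of this motif is a description and not a test. Of the 7 members with the pair, the near-identical HSP70 genes and the 2 with the smallest p are shown. The fixed bases of the motif are in capitals. The stretches lie at chr17:34972177-34972276 (minus strand) for Hspa1a, chr17:34959259-34959358 (minus) for Hspa1b, chr5:135887789-135887848 (plus) for Hspb1 and chr4:40722328-40722387 (plus) for Dnaja1.
Hspa1a: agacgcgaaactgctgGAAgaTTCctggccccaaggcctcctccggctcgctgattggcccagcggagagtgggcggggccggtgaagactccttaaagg
Hspa1b: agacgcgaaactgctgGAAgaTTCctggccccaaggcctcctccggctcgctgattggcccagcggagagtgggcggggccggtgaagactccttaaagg
Hspb1: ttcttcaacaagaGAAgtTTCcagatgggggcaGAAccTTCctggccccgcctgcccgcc
Dnaja1: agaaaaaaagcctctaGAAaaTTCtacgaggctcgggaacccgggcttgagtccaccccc
The stretches of Hspa1a and Hspa1b, 100 bases each, are the same base for base, and the genes share 247 of the 250 bases before the start (98.8%). Hspb1 holds 2 such pairs. A match of letters is a description and not a measured site, and binding was not measured here.

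The constitutive cytosolic class held the HSP70 and HSP110 genes expressed without stress or in other patterns. In it 7 of 8 members were lower, with a median change of −0.11. By the brightest probe set, only 1 was lower at an unadjusted p of 0.05 (12.5%, against 7.12% of all genes). That gene was Hspa4l, an HSP110 relative. Hspa4l stood at 10.08, 10.01, 9.69 and 9.67 in wild type and at 9.46, 9.18, 9.49, 9.50 and 9.06 in knockout aortas, with no overlap. Its change was −0.52 (SE 0.13, 1.44-fold lower, adjusted p 0.131 in limma). In contrast to the inducible genes, its highest wild type array was replicate 1. Hspa8, the main constitutive HSP70, ran from 13.70 to 13.80 in wild type and from 13.59 to 13.73 in knockout aortas, a change of −0.11 (SE 0.051, adjusted p 0.286). Its other probe sets stood at −0.25 and −0.32 without overlap of the groups (unadjusted p 0.0024 and 0.0013 in limma) and at −0.71 (unadjusted p 0.121). Of 15 other tested probe sets of the class 9 were lower and 6 higher, with a median of −0.16. At an unadjusted p of 0.05, 5 of them were lower and 1 higher. Among the 12183 other probe sets of all genes, 1228 were lower and 1036 higher at that p. Hspa1l, the testis-type neighbour of Hspa1a, differed by −0.46 (SE 0.22, adjusted p 0.284), with wild type arrays spread over 8.24 to 9.37. Hspa4 stood at −0.056 (SE 0.091) and turned to 0.042 as a mean of its probe sets, and Hspa14, which works on ribosomes, was the 1 member above 0, at 0.16 (SE 0.082).

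To set an inducible gene against its constitutive relative, the log2 difference of the pair was taken within each array and compared between the groups, over 4 pairs, by an exact two-sided permutation test of all 126 splits of the arrays (smallest p 0.0079). The pairs were chosen with earlier results of these data known. Hspb1 against Hspb6, both small heat shock proteins of smooth muscle, differed by −0.72 between knockout and wild type (SE 0.087, 95% interval from the pooled SD −0.93 to −0.52, exact p 0.0079, adjusted over the pairs 0.016). The within-array difference was 1.02 to 1.38 in wild type and 0.44 to 0.71 in knockout aortas. Dnaja1 against Dnaja2 differed by −0.23 (SE 0.045, −0.33 to −0.12, exact p 0.0079, adjusted 0.016), again with no overlap. Hspa1a against Hspa8 differed by −0.91 (SE 0.25, −1.50 to −0.33, exact p 0.016, adjusted 0.021), with wild type replicate 1 at −3.00 among the knockout arrays at −3.34 to −2.99. Hsph1 against Hspa4 differed by −0.18 with an interval of −0.43 to 0.07 (exact p 0.151, adjusted 0.151), which missed the threshold. Taken over the mean of all probe sets that last pair differed by −0.46 (exact p 0.0079, adjusted 0.016). In the same setting Hspa1a against Hspa8 shrank to −0.67 (exact p 0.016, adjusted 0.016). Hspb1 against Hspb6 then differed by −0.73 and Dnaja1 against Dnaja2 by −0.20. Leaving out knockout replicate 1, 3, 4 or 5 gave the first 3 pairs adjusted p-values of 0.057 to 0.076 by the exact test, where the smallest exact p of 4 against 4 arrays is 0.029; their differences were then −0.77 to −0.70, −0.24 to −0.21 and −0.95 to −0.87.

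**Figure D4:**
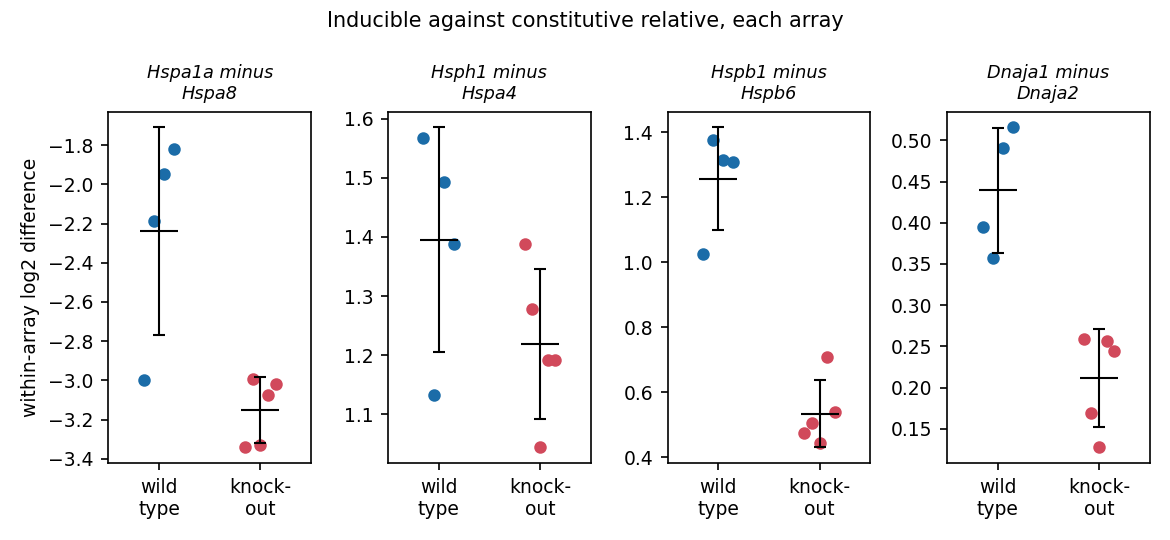
Log2 difference between an inducible gene and its constitutive relative on each array (y axis, separate scale per panel), for wild type (blue) and knockout (red) arrays; bars give the group mean and SD. The level of a difference depends on the probe sets and only its shift between the groups is compared; Hspb1 minus Hspb6 lies at 1.02 to 1.38 in wild type and 0.44 to 0.71 in knockout aortas.

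The small heat shock protein genes outside the inducible class did not share its direction. Of 4 tested, 2 were lower and 2 higher, with a median of 0.087, or 0.052 without wild type replicate 3. Hspb6, which encodes HSP20, a target of cyclic nucleotide signalling in relaxing smooth muscle, stood at 12.36, 12.21, 12.40 and 12.40 in wild type and at 12.47, 12.49, 12.54, 12.55 and 12.56 in knockout aortas. Every knockout array lay above every wild type array, the only such member, with a change of 0.18 (SE 0.058, adjusted p 0.159). The smooth muscle markers, higher by a median of 0.077, moved the same way. Hspb2, which lies beside Cryab head to head, was the member with the highest change at 0.40 (SE 0.14, adjusted p 0.177). Its wild type arrays were spread over 7.51 to 8.30 and overlapped the knockout arrays at 8.21 to 8.36. Hspb7, a filamin-binding muscle gene, stood at −0.021 (SE 0.10), and its sign turned when 1 array was left out.

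In the mitochondrial class, 6 of 7 members were lower, with a median change of −0.21 (−0.12 with array weights). Of them 3 were lower at an unadjusted p of 0.05 (42.9%, against 7.12% of all genes). Of 8 other tested probe sets, for 4 of the genes, 5 were lower and 3 higher, with a median of −0.079. At that p 2 of these probe sets were lower, where 1228 of 12183 were among all genes. Hspe1, the HSP10 lid of the mitochondrial chaperonin, stood at 12.15, 12.20, 12.12 and 12.27 in wild type and at 12.05, 11.91, 12.06, 11.96 and 11.88 in knockout aortas. The groups did not overlap, and the change was −0.21 (SE 0.060, adjusted p 0.141). Hspd1, the HSP60 barrel that Hspe1 closes, stood at 11.36, 11.77, 11.50 and 11.62 against 11.28, 11.38, 11.41, 11.13 and 10.86. It differed by −0.35 (SE 0.13, adjusted p 0.187), and knockout replicates 2 and 3 overlapped wild type replicate 1. Dnajc11, which sits in the mitochondrial membranes, differed by −0.19 (SE 0.082, adjusted p 0.246), but its other tested probe sets stood at 0.094 and 0.034 and the mean of its probe sets at −0.020. Hspa9, mortalin, the HSP70 that pulls proteins into the matrix, differed by −0.15 (SE 0.073, adjusted p 0.285). Knockout replicate 5 was the lowest knockout array for 6 of the 7 genes. It also had the lowest sums of adipocyte and brown adipocyte markers (14.14 and 13.93), and brown adipocytes are rich in mitochondria. The part of adipocytes of either kind was not tested.

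Hspd1 and Hspe1 are transcribed away from each other from 1 shared stretch, which is shown because it holds the stricter heat shock element of 3 units, GAANNTTCNNGAA on either strand. Only 0.662% of all genes and 0.603% of all windows hold it. The stretch is given on the Hspe1 strand at chr1:55088048-55088097 (plus), with the units in capitals.
Hspe1: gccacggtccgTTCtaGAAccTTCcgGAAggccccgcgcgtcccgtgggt
The 2 overlapping matches at chr1:55088059-55088071 and chr1:55088064-55088076 lie in the windows of both genes. Besides them, Hsph1 in the inducible class and the J-domain gene Dnajb6 held the 3-unit element, and the other 67 members with a window did not.

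The ER class was mixed. By the brightest probe set, of 12 members, 5 were lower and 7 higher, with a median of 0.011 against 0.027 for all genes. At an unadjusted p of 0.05, 2 were lower (16.7%, against 7.12% of all genes) and 1 higher, against 12.8% of all genes. Dnajb9, an ER J-domain protein that restrains the stress sensor IRE1, stood at 11.39, 11.48, 11.33 and 11.49 in wild type and at 11.29, 11.24, 11.20, 11.19 and 11.01 in knockout aortas. It was the 1 ER member of 12 whose groups did not overlap, where 2.16% of all genes were lower without overlap. Its change was −0.24 (SE 0.070, adjusted p 0.148). Dnajb12, a J-domain protein of the ER membrane, differed by −0.15 (SE 0.058, adjusted p 0.200), while its relative Dnajb14 stood at 0.15 (SE 0.074, adjusted p 0.284) and Dnajc16 at 0.18 (SE 0.075, adjusted p 0.233). Hspa5, the ER HSP70 known as BiP, ran from 12.13 to 12.40 in wild type and from 12.02 to 12.24 in knockout aortas (−0.13, SE 0.069, adjusted p 0.318). Hsp90b1, the ER HSP90, stood at 0.015 (SE 0.12). The other tested probe sets leaned lower: 14 of 21 were lower and 7 higher, with a median of −0.085, where those of all genes had −0.0093. The single further probe sets of Dnajb14 (−0.14) and Dnajc16 (−0.11) had the opposite sign, and over the mean of probe sets these genes stood at 0.0083 and 0.034. The class median turned to −0.066 without wild type replicate 3.

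Windows of ER members were read for the ER stress response element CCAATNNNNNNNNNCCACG on both strands, the site known from BiP. It was found in 3 of 10 ER members with a window, in 0 of the 61 other members, and in 37 of 27025 genes (0.137%). The 3 are shown, as they are the contrast to the heat shock elements above: Hspa5 at chr2:34772010-34772059 (plus), Dnajc3 at chr14:118937812-118937861 (plus) and Hsp90b1 at chr10:86705525-86705664 (minus), with the fixed bases in capitals.
Hspa5: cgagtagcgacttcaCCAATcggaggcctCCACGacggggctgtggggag
Dnajc3: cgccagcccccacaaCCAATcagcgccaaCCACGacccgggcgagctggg
Hsp90b1: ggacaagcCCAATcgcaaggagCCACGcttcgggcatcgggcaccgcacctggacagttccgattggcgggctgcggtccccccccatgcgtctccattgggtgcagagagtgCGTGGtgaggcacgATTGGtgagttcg
Hsp90b1 holds 2, the second on the opposite strand. Their changes were −0.13 (Hspa5), −0.13 (Dnajc3, which encodes an inhibitor of the kinase PERK) and 0.015 (Hsp90b1) on the brightest probe sets, none at an unadjusted p of 0.05. Among their other probe sets, 1 of Dnajc3 stood at −0.32 (unadjusted p 0.0047, adjusted over probe sets 0.136 in limma) without overlap of the groups and the other 3 at −0.17, −0.21 and −0.31, and 1 of Hspa5 stood at −0.20 (unadjusted p 0.0497, adjusted 0.264) and the other at 0.085.

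The TRiC chaperonin had the smallest median SD of the 8 classes in both groups. Of 8 tested subunits 6 were lower and 2 higher, by −0.089 to 0.0056, with a median of −0.038 and none at an unadjusted p of 0.05. Its mean per array ran from 12.01 to 12.04 in wild type and from 11.96 to 12.00 in knockout aortas, and the median SD per gene was 0.039 and 0.053. Cct3 was lower without overlap of the groups, by only −0.088 (SE 0.046, adjusted p 0.320). Cct5 stood at −0.089 (SE 0.061) and Cct7 at −0.082 (SE 0.052). The other tested probe sets of the subunits were lower in 12 of 15, with a median of −0.066. At an unadjusted p of 0.05 in limma 2 of them were lower, where 1228 of 12183 were among all genes. These were 1 of Cct3 at −0.30 (p 0.013) and 1 of Cct7 at −0.14 (p 0.045). Prefoldin, the complex that hands actin and tubulin to TRiC, was likewise mixed: 4 of 6 genes were lower, with Pfdn1 at 0.14 (SE 0.048, adjusted p 0.184) and higher on every knockout array, and Pfdn4 at −0.18 (SE 0.083).

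Outside the inducible class the BAG and J-domain families had medians just under 0. Of 5 BAG genes 4 were lower, with a median of −0.058 (−0.10 when knockout replicate 2 was left out, −0.036 when knockout replicate 3 was, and −0.033 when wild type replicate 5 was), none at an unadjusted p of 0.05, in contrast to Bag3 above. Bag2, an inhibitor of the ubiquitin ligase CHIP, differed by −0.27 (SE 0.12, adjusted p 0.267), Bag4 by −0.100 (SE 0.085), and Bag6, which guides tail-anchored proteins, by 0.072 (SE 0.055). Among 23 other J-domain genes 14 were lower and 9 higher, with a median of −0.059 (−0.028 without knockout replicate 2). At an unadjusted p of 0.05, 2 were lower (8.70%, against 7.12% of all genes) and 2 higher, against 12.8% of all genes.

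Dnaja4 had the smallest p of these J-domain genes. It stood at 9.87, 10.10, 10.54 and 10.50 in wild type and at 9.50, 9.53, 9.41, 9.77 and 9.75 in knockout aortas, without overlap and with wild type replicate 1 lowest. The change was −0.66 (SE 0.15, 1.58-fold lower, adjusted p 0.112). One of its windows held the head-to-head pair 2 times, at chr9:54699459-54699528 (plus), shown because the gene was placed by family and not by inducibility.
Dnaja4: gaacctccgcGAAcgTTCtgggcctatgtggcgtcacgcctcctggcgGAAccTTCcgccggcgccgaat
Dnaja2, the constitutive relative of Dnaja1, differed by −0.15 (SE 0.054, adjusted p 0.198), with 11.51 to 11.66 against 11.38 to 11.49. Dnajc17, a spliceosomal J-domain gene, stood higher by 0.38 (SE 0.12, adjusted p 0.153), with 1 knockout array level with the highest wild type arrays (7.18 to 7.68 against 7.68 to 7.90). Dnajc6, auxilin, which uncoats clathrin vesicles in neurons, had the widest spread: 5.61, 10.66, 7.69 and 5.85 in wild type and 9.26, 5.17, 5.47, 6.69 and 6.17 in knockout aortas. It was highest on wild type replicate 3 and knockout replicate 1, the arrays with the highest neuron markers, and its change of −0.91 (SE 1.16) turned to 0.16 without wild type replicate 3.

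Partner genes that are no members were taken as lists by compartment. Of 45 tested partners 30 were lower (66.7%, against 43.3% of all genes) and 15 higher, with a median of −0.035. At an unadjusted p of 0.05, 5 were lower (11.1%, against 7.12% of all genes) and 2 higher, against 12.8% of all genes. In limma 0 passed an adjusted p of 0.05. In the list taken as cytosolic, 9 of 15 were lower, among them Serpinh1 (−0.035), whose protein resides in the ER. There Stip1, which joins HSP70 to HSP90, stood at −0.40 (SE 0.11, adjusted p 0.136). Stub1, the ubiquitin ligase CHIP that marks chaperone clients for degradation, stood at 0.28 (SE 0.064, adjusted p 0.117) and was higher on every knockout array, 10.82 to 10.99 against 10.53 to 10.73. In the ER list, where 11 of 15 were lower, the stress-response genes Xbp1 (−0.31, SE 0.090, adjusted p 0.148) and Herpud1 (−0.36, SE 0.11, adjusted p 0.153) had the smallest p. Among 9 mitochondrial partners 6 were lower, none at an unadjusted p of 0.05. There Grpel1, the exchange factor of mortalin, stood at −0.20 (SE 0.11, adjusted p 0.329) and the protease Htra2 at 0.11 (SE 0.066).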

How the data were processed

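Log2 expression per probe set, as deposited by the authors, came from Affymetrix arrays through GCRMA (background correction and normalization across arrays), per the submitters' processing notes; the version is not stated, and the log2 scale was inferred from the values. Of 45101 probe sets 34945 carry 1 symbol in the platform annotation, 932 several and 9211 none. A probe set was tested if over 4 on at least 4 arrays, and a gene is its brightest probe set. The column of the excluded sample holds 0 values.

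Groups were compared with limma 3.58.1 (R 4.3.3; lmFit, eBayes), adjusted by Benjamini-Hochberg over all tested genes; the procedure was tested on simulated data. Changes are knockout minus wild type (log2) with SE, levels are means with SD, and the number of arrays limits precision. Classes were described by counts and medians, not tested. The members, classes, pairs and partner lists were chosen with earlier results of these data known. Named were the pair genes, the 4 smallest p of the inducible, constitutive, ER and mitochondrial classes, the 3 smallest of each other class, the 2 largest rises and the 2 smallest p of each partner list. The rest of the inducible class, Hspa5, Hsp90b1, Dnajc3, Dnajc6 and Dnajb6 were added after their values were seen. Alternatives were quantile normalization again, equal array medians, no filter, a floor of 6, the mean of probe sets, trend and robust options, array weights, the replicate number as a block and leaving out each array; leaving out the 2 arrays richest in neuronal transcripts was chosen after seeing the data.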

Additional observations from a re-analysis of the deposited data

Results flagged for a closer look

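In 46 items (38 genes and 8 class means) each group of arrays was checked for 1 array far from the rest; of the 92 groups 4 were marked, where chance marks about 1 in 20. Cct5 was lowest on knockout replicate 5 at 11.28, with the nearest array at 11.46. The mean of the mitochondrial class was highest on wild type replicate 3 at 11.44 (nearest 11.31). The mean of the BAG class was lowest in wild type on replicate 1 at 9.62 (nearest 9.75). The mean of the other J-domain genes was highest in knockout on replicate 1 at 9.07 (nearest 8.92), the array on which Dnajc6 stood at 9.26.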

How the results depend on the processing

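All 11 inducible members were lower in each of 18 alternatives, with a called count among them of 0 except 1 (trend and robust options, Hspb1), 2 (array weights) and 7 (without wild type replicate 1). Over all members the count at an adjusted p of 0.05 in limma was 1 with trend and robust options, 3 with array weights and 0 to 11 without any 1 array, in fits that called 33 (0.230%), 73 (0.510%) and 2 to 1051 of all genes, against 8 in the comparison as reported. Members higher at an unadjusted p of 0.05 numbered 5 in the comparison as reported, where 12.8% of all genes were higher. For the alternatives the share of all genes at that p is not given here. The members then numbered 8 with array weights, 3 with the replicate block, 2 to 8 without any 1 array and 1 without the 2 arrays richest in neuronal transcripts. That last setting gave medians of −0.070 for the ER and −0.054 for the chaperonin class, and without any 1 array the ER median ran from −0.066 to 0.025. The chaperonin median was −0.0044 with no filter and −0.070 with the mean of probe sets, which gave −0.024 for the BAG, −0.037 for the other J-domain and 0.14 for the other small heat shock protein genes. Without any 1 array the medians ran from −0.10 to −0.033 (BAG), −0.079 to −0.028 (other J-domain), 0.052 to 0.12 (other small heat shock protein) and −0.24 to −0.14 (mitochondrial); array weights gave −0.12 for the last. Without any 1 array the pairs differed by −1.17 to −0.77 (Hspa1a), −0.80 to −0.68 (Hspb1) and −0.26 to −0.20 (Dnaja1). For the pairs, the mean of probe sets gave −0.67 (Hspa1a), −0.73 (Hspb1), −0.20 (Dnaja1) and −0.46 (Hsph1). Of 684 values for 38 named members 663 kept direction and side of the threshold, 15 newly passed it and 6 reversed: Hspa4 to 0.042 (mean of probe sets) and 0.013 (without the neuron-rich arrays), Hspb7 to 0.0022, 0.023 and 0.038 (without 1 array; the range was −0.088 to 0.038) and Dnajc6 to 0.16 (range −1.58 to 0.16 without 1 array). The causes were not tested. With the replicate block, which leaves out knockout replicate 2, 0 genes passed in limma. Deviations from the group means correlated between same-numbered arrays at −0.36, −0.15, 0.060 and 0.21. For none of them was the array of the same number the best match. These values cannot tell whether same-numbered arrays were handled together. The fifth pair that had been listed, with Hsp90ab1, was not run.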
